A study of Mus musculus with 23 samples.

Results

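The myeloid growth factors and their receptors are 10 of the 48897 genes in the deposited expression table. The 10 were chosen by name, with earlier results of these data known, and not by a cut on any measured value. They are the ligands Csf1, Il34, Csf2, Csf3 and Kitl and the receptors Csf1r, Csf2ra, Csf2rb, Csf3r and Kit. Their transcripts were followed in 23 libraries of polyadenylated RNA from an orthotopic model of colorectal cancer in male BALB/c mice. The mice were aged 4 to 6 weeks when they were divided into groups. Tumor-bearing mice were given CT26 cells, a colon carcinoma line of BALB/c origin, in the wall of the cecum, and 9 of them (M1, M2, M4, M5, M6, M7, M8, M10 and M12) each gave a primary tumor and a liver. That liver was named pre-metastatic by the study, which saw no liver metastasis at the time of collection. The 5 control livers came from sham-operated mice (C1, C4, C5, C6 and C7) that received serum-free medium at the same site. All mice were killed 3 weeks after the operation. The tumors grew from 1 transplanted cell line in whole pieces of tissue, so that transcripts of CT26 cells and of host cells in a tumor cannot be told apart.

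These ligands govern the making and the survival of myeloid cells. CSF1 and IL34 both bind CSF1R, the receptor on which most tissue macrophages, the Kupffer cells of the liver among them, depend. CSF2 (GM-CSF) binds CSF2RA paired with the common beta chain CSF2RB, and CSF3 (G-CSF) binds CSF3R and drives the production of neutrophils. KITL (stem cell factor) binds KIT on blood cell progenitors, mast cells and interstitial cells of Cajal. Tumor-derived CSF2 and CSF3 are known for the expansion of immature myeloid cells in tumor-bearing animals.

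Upstream sequences were available for 6 of the 10 genes (Csf1, Csf2, Csf2ra, Csf3r, Kit and Kitl) in RefSeq on build GRCm38.p6, and those of 4 are shown because these genes rose together in the pre-metastatic liver. The 250 bases before the start of Csf1 (chr3:107760470-107760719, minus strand) are printed first, with 10 letters in capitals. Read on the other strand they are a kappa-B motif, the kind bound by NF-kappa-B factors, and they begin 154 bases before the start.
Csf1: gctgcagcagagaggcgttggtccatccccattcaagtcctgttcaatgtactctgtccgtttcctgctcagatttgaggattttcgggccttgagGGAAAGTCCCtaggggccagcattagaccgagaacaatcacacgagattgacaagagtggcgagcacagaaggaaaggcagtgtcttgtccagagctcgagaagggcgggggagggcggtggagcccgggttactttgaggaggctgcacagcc
For 3 receptors a stretch of 30 bases is shown around the letters GAGGAAG, a purine-rich motif of the PU.1 kind, in capitals: Csf3r at chr4:126024562-126024591 (plus strand), Kit at chr5:75574753-75574782 (plus strand) and Csf2ra at chr19:61228419-61228448 (minus strand).
Csf3r: ctccttcctgaGAGGAAGgggctgtctatg
Kit: gagagtgctagGAGGAAGaggatccagggt
Csf2ra: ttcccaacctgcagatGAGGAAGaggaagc
Both motifs were searched on both strands and do not share letters. The kappa-B letters were present in 0.14% of 32851 windows of this length and the purine-rich letters in 10.6%, so that the second are common. The windows of Csf2 and Kitl held neither set of letters. Each window lies before the start of the RefSeq transcript, which can differ from the gene span of the deposited file, and the stretches of Csf3r and Csf2ra fall inside that span. Of the 250 bases, 109 overlapped annotated exons for Csf3r, 71 for Kit, 191 for Kitl and 11 for Csf2ra. Both motifs were chosen after the values of the genes were seen, and a match is a description of the sequence only.

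The deposited counts summed to between 44587556 and 79773163 per library. Hepatocyte markers (Alb, Apoa1, Ttr, Cps1 and Hnf4a) were abundant in all 14 livers, with a summed level of 27160 to 62277 RPKM (read counts per kilobase of gene, scaled to the total of the library), and lay between 5.37 and 244 RPKM in the tumors. The 10 most abundant genes took 15.0% to 27.9% of the counts in the livers against 4.78% to 5.74% in the tumors. Genes of the circadian clock placed 1 control liver (C7) and 4 pre-metastatic livers (M1, M2, M10 and M12) in a late phase, and values within the early phase are therefore given below. Among the 8 members that every liver expressed, C1 had the lowest level of the control livers for 6 members. The liver of M7, the most deeply sequenced, had the lowest level of the pre-metastatic livers for 5.

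The levels of the members differed widely within each tissue. Csf1r ranked first in both kinds of liver, at 9.76 ± 2.72 RPKM (SD, n = 5) in control livers and 19.98 ± 7.48 RPKM (SD, n = 9) in pre-metastatic livers, and its range did not overlap with that of Csf1, which ranked next. In control livers Csf1, Csf2rb, Il34, Kitl, Csf2ra, Kit and Csf3r followed, each with a range of levels that overlapped with its neighbor's. In pre-metastatic livers Csf3r came 4th, after Csf1 and Csf2rb, where it had been 8th in control livers. In the tumors Csf1 and Csf1r led with overlapping ranges, followed by Il34, Kitl and Csf2rb. Csf2 and Csf3 were the scarcest 2 members in every tissue.

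**Figure D1:**
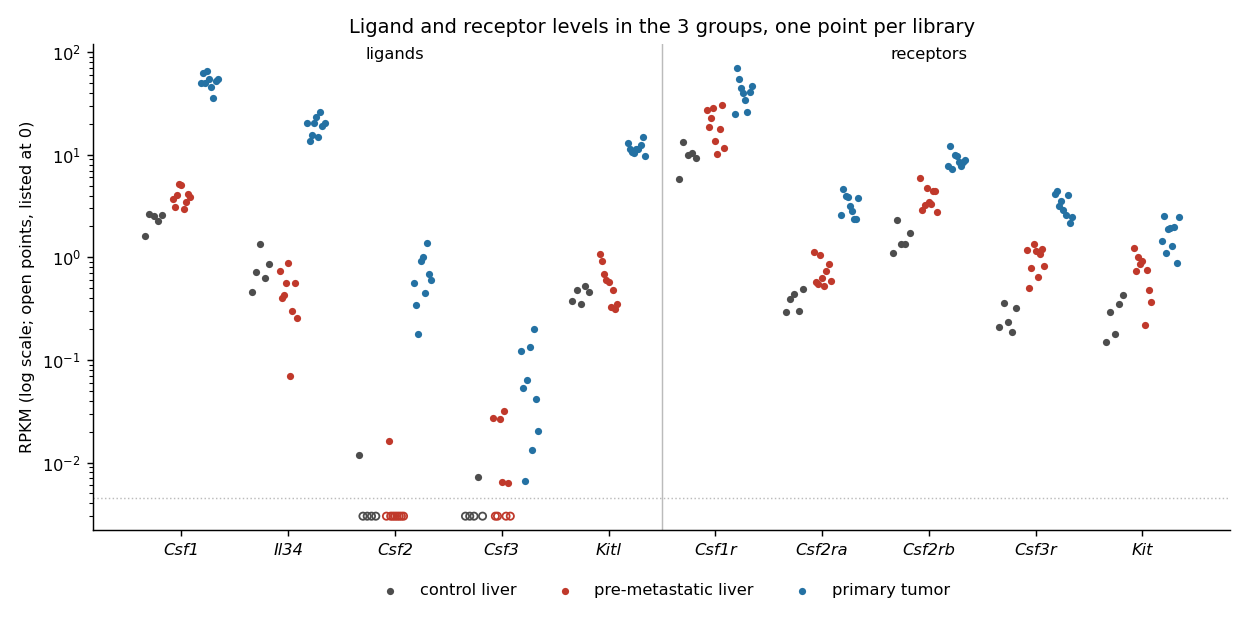
RPKM on a log scale for the 5 ligands and 5 receptors in control livers (grey), pre-metastatic livers (red) and primary tumors (blue), 1 point per library, with libraries listed at 0 as open points at the bottom. The 4 ligands Csf1, Il34, Csf2 and Kitl lie far above both kinds of liver in the tumors, while the 5 receptors step up from control liver to pre-metastatic liver.

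The first comparison asked which of these genes differed between the liver of tumor-bearing mice and the liver of sham-operated mice. All 5 receptors were higher in the pre-metastatic liver, with Csf3r rising most of the members tested (3.94-fold), and of the ligands Csf1 was higher (1.80-fold). Of the 8 members with enough counts for the test, 6 were higher and 0 lower (edgeR quasi-likelihood test, Benjamini-Hochberg adjusted p under 0.05 over 16989 genes), where 31% of all genes tested passed, 17.7% higher and 13.3% lower. With library totals in place of the TMM scaling (a trimmed mean of log ratios), 2378 of all genes were higher and 2796 lower instead of 3010 and 2261, and the same 6 members were called. The median log2 fold change was 1.06 over the 8 members and 0.01 over all genes tested. In the bulk tissue, more cells of a type and more RNA per cell cannot be told apart.

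Csf1, the main growth factor of macrophages (chr3:107741048-107760469, minus strand, in the mm10 coordinates of the file), measured 1.62, 2.67, 2.54, 2.27 and 2.59 RPKM in control livers C1, C4, C5, C6 and C7. In pre-metastatic livers it ran from 2.96 (M7) over a median of 3.89 to 5.18 RPKM (M5). All 9 pre-metastatic livers thus lay above all 5 control livers, a separation in this direction that 4.85% of all genes tested showed. The log2 fold change was 0.85 ± 0.15 (SE; edgeR adjusted p = 0.000838).

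Il34, the second ligand of CSF1R (chr8:110741829-110805945, minus strand), had a lower mean in the pre-metastatic liver and did not pass the test. Separation downward was seen in 6.09% of all genes tested, and Il34 was not among them. Control livers held 0.455, 0.720, 1.34, 0.630 and 0.865 RPKM in the order C1 to C7, and pre-metastatic livers 0.0701 (M7) to 0.877 RPKM (M6) with a median of 0.430. The groups overlapped, with 5 pre-metastatic livers below every control liver. The log2 fold change was -0.70 ± 0.41 (SE; edgeR adjusted p = 0.217), and it was -0.55 without M7 (adjusted p = 0.212).

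Kitl, the ligand of KIT (chr10:100015635-100100416, plus strand), had 0.376, 0.481, 0.350, 0.520 and 0.455 RPKM in control livers C1 to C7. Pre-metastatic livers spread more widely, from 0.315 (M10) over a median of 0.570 to 1.07 RPKM (M1). The groups overlapped, and the log2 fold change of 0.51 ± 0.27 (SE) had an edgeR adjusted p of 0.169.

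The ligands of the granulocytic receptors were close to absent from the livers. Csf2 (chr11:54247270-54249899, minus strand) had 1 count in 1 control liver and 1 count in 1 pre-metastatic liver, and 0 in all others. Csf3 (chr11:98700897-98704503, plus strand) had 1 count in 1 control liver and 1 to 7 counts in 5 of the 9 pre-metastatic livers, the most in M7. Summed over libraries, Csf3 gave 17 counts in the pre-metastatic livers and 1 in the control livers, a ratio of 9.40 relative to library totals, with an exact 95% interval of 1.47 to 393 that covers counting error only. Between livers the exact rank-sum test of Csf3 gave a two-sided p of 0.252, so that no difference was detectable at this depth. Neither gene reached the count filter of the test in the livers.

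**Figure D2:**
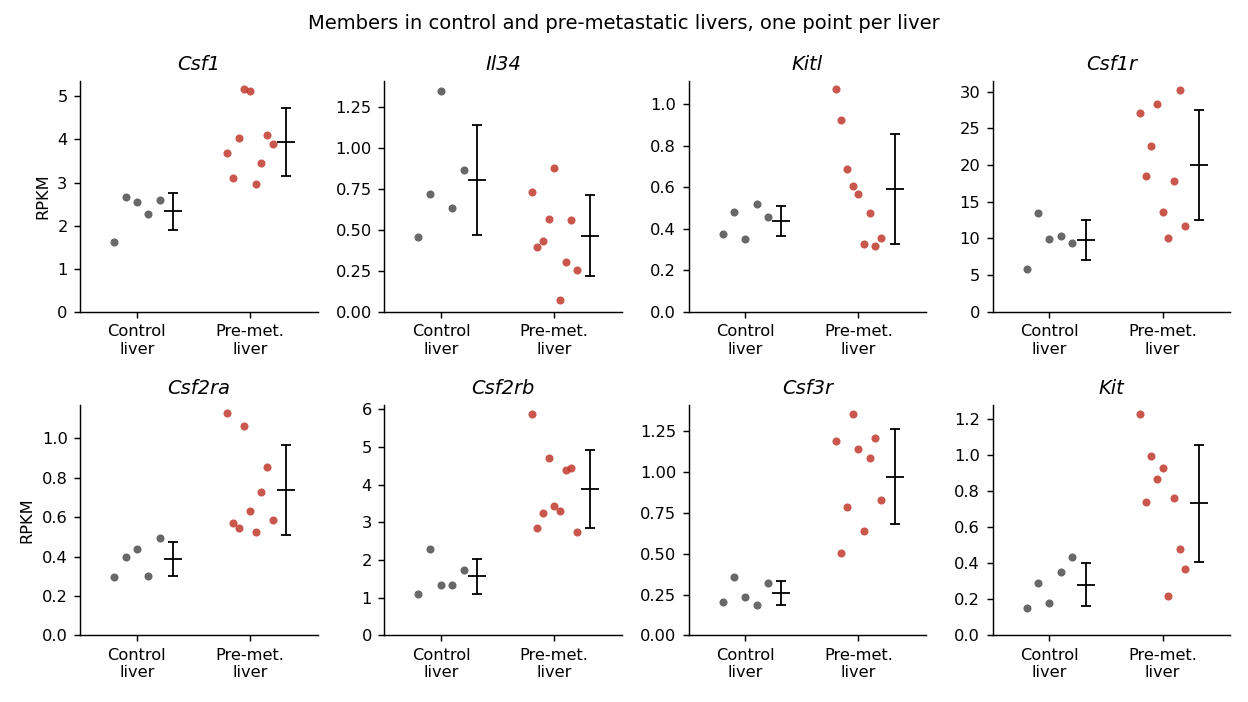
RPKM of the 8 members expressed in every liver, in 5 control livers (grey) and 9 pre-metastatic livers (red), 1 point per liver, with the mean and SD beside each group and axes that start at 0. Csf1, Csf2ra, Csf2rb and Csf3r show no overlap between the groups, whereas Il34 and Kitl overlap.

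Csf3r, the G-CSF receptor of neutrophils and their precursors (chr4:126023441-126044975, plus strand), showed the largest fold change of the 8 members tested. Control livers held 0.207, 0.358, 0.232, 0.189 and 0.319 RPKM (54 to 114 counts) in the order C1 to C7. Pre-metastatic livers held 0.501 (M2) to 1.35 RPKM (M5) with a median of 1.09, from 125 to 420 counts. Every pre-metastatic liver lay above every control liver, and the log2 fold change was 1.98 ± 0.25 (SE; edgeR adjusted p = 8.1e-05). Within the early phase alone it was 2.07 (adjusted p = 0.000830).

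Csf2rb, the signaling chain shared by the receptors of GM-CSF, IL-3 and IL-5 (chr15:78325798-78351001, plus strand), measured 1.10, 2.29, 1.35, 1.34 and 1.73 RPKM in control livers C1 to C7. It measured 2.74 (M12) to 5.88 RPKM (M1) in pre-metastatic livers, with a median of 3.43. The groups did not overlap, and the log2 fold change was 1.40 ± 0.19 (SE; edgeR adjusted p = 0.000144). Mice carry a close copy beside it, Csf2rb2, which encodes a beta chain used by IL-3 alone. Reads that fit both genes could affect the levels of both, and how they were counted is not stated. Csf2rb2 rose as well, from 0.369 ± 0.0762 to 1.47 ± 0.528 RPKM (SD, n = 5 and 9; log2 fold change 2.08, edgeR adjusted p = 5.2e-05).

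Csf2ra, the chain that gives the GM-CSF receptor its specificity (chr19:61217191-61228463, minus strand), had 0.296, 0.397, 0.440, 0.302 and 0.494 RPKM in control livers C1 to C7. It had 0.527 (M7) to 1.13 RPKM (M1) in pre-metastatic livers, with a median of 0.632. The lowest pre-metastatic liver lay just above the highest control liver, and the log2 fold change was 1.01 ± 0.20 (SE; edgeR adjusted p = 0.00144).

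Csf1r, the receptor of CSF1 and IL34, was the most abundant member. Control livers held 5.79, 13.4, 9.87, 10.4 and 9.38 RPKM in the order C1 to C7, and pre-metastatic livers 10.1 (M7) to 30.2 RPKM (M10) with a median of 18.5. Here the groups overlapped, since M7 and M12 lay below control liver C4, and 7 of 9 pre-metastatic livers stood above every control liver. The log2 fold change was 1.10 ± 0.24 (SE; edgeR adjusted p = 0.00304).

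Kit, the receptor tyrosine kinase of progenitors and mast cells (chr5:75574987-75656722, plus strand), was among the scarcer receptors. It had 0.150, 0.293, 0.179, 0.352 and 0.433 RPKM in control livers C1 to C7 and 0.219 (M7) to 1.23 RPKM (M1) in pre-metastatic livers, with a median of 0.761. M7 and M12 again lay within the range of the controls. The log2 fold change was 1.46 ± 0.36 (SE; edgeR adjusted p = 0.00701).

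The 6 calls held in each of the 21 alternative settings, including each omission of 1 library. Without C1 the log2 fold change was 0.98 for Csf1r and 1.32 for Kit (edgeR adjusted p = 0.0105 and 0.0222), and without M7 it was 1.18 and 1.58 (0.00118 and 0.00165). With the clock phase as a term, Csf1 gave 0.86, Csf1r 1.05, Csf2ra 0.95, Csf2rb 1.38, Csf3r 1.97 and Kit 1.44, each with an adjusted p of at most 0.00959.

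**Figure D3:**
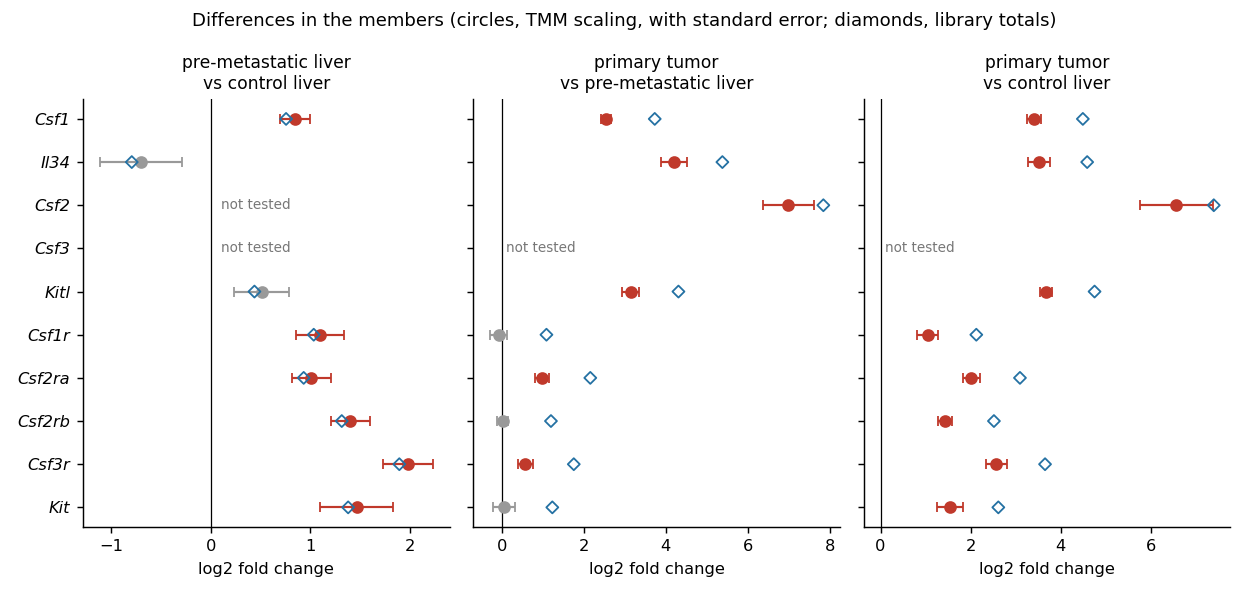
Log2 fold change of each member in the 3 comparisons, with circles for the edgeR fit scaled by TMM (bars are standard errors, red for adjusted p under 0.05 and grey otherwise) and diamonds for scaling by library totals. The choice of scaling moves the members little between livers but shifts all of them upward by about 1 unit when tumors are compared with livers.

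The markers of the cells that carry these receptors were examined beside them. Of 9 neutrophil markers tested, 6 were higher in the pre-metastatic liver, among them Mmp9 (log2 fold change 2.78) and S100a8 (2.32), and the summed level of the 10 markers ran from 6.45 to 22.3 RPKM in control livers and from 7.12 to 142 RPKM in pre-metastatic livers. In the early phase alone 4 of the 9 were higher. All 4 genes of granulocyte precursors were higher, led by Prtn3, a serine protease of neutrophil granules, at 1.22 ± 0.320 against 72.0 ± 28.7 RPKM (SD, n = 5 and 9), and 2 of the 4 remained so in the early phase. The summed level of these 4 genes ran from 1.34 to 2.89 RPKM in control livers and from 27.1 to 112 RPKM in pre-metastatic livers, most of it Prtn3. Their part in the rise of Csf3r was not tested.

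Of 6 Kupffer cell markers, 5 were higher, including Timd4 (log2 fold change 1.77), Cd5l (1.64) and Clec4f (1.08). Their summed level was 56.4 to 116 RPKM in control livers and 114 to 346 RPKM in pre-metastatic livers. Of 7 markers of monocytes and macrophages, 6 were higher, with Ccr2, the chemokine receptor of inflammatory monocytes, at 2.53 and Lyz2 at 1.90. Their sum, most of it Lyz2, rose from a range of 27.1 to 56.6 RPKM to one of 72.6 to 207 RPKM. Ptprc, the pan-leukocyte marker CD45, rose by 1.44 on the log2 scale (edgeR adjusted p = 0.000419), which is of the size seen for Csf2rb and Kit. The part of these cells in the change of each receptor was not tested.

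Markers of other cell types were mostly not called, with exceptions in several lists. Of the 9 mast cell markers only 1 had enough counts for the test, and it was not called. Mcpt1, Mcpt2 and Ms4a2 had at most 3 counts in every control liver, and the summed level of the 9 genes was 0.0666 to 0.965 RPKM in control and 0.119 to 1.95 RPKM in pre-metastatic livers. Among dendritic cell markers 1 of 4 tested was higher (Xcr1), among T and NK cell markers 1 of 5 (Cd4), among endothelial markers 1 of 6 (Stab2), among markers of stellate cells and fibroblasts 1 of 6 (Col1a1, log2 fold change 2.71) and among those of smooth muscle and interstitial cells of Cajal 1 of 5 (Etv1). The 1 gene of red cell precursors tested was not called. Of 5 hepatocyte markers, Cps1 and Hnf4a were lower. Of 4 gut epithelial markers tested, 3 were higher, Krt20 (3.67), Vil1 (2.99) and Cdh1 (0.97), and Krt20 and Vil1 averaged 0.215 and 0.132 RPKM in the pre-metastatic livers. In the early phase 1 of the 2 that could be tested was higher. Their part in the levels of the members was not tested.

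Genes of the same pathway were then counted. Of 24 genes that carry the signal of these receptors, 16 were higher and 0 lower in the pre-metastatic liver. Over all genes tested, 17.7% were higher and 13.3% lower. The median log2 fold change was 0.55 for the 24 against 0.01 over all genes. They included the phospholipase Plcg2 (1.83), the Src-family kinase Fgr (1.68) and the leukocyte PI3-kinase subunits Pik3cg (1.40) and Pik3cd (1.35). With library totals in place of TMM 12 of the 24 were higher. The part of leukocyte content in these levels was not tested. Among 4 feedback genes, Socs3 and Socs1 were higher (1.26 and 1.14). Of 7 inducers of colony-stimulating factors tested, 4 were higher: Il1b (1.24), Il17ra (0.80), Il1r1 (0.74) and Nfkb1 (0.24). Of 10 myeloid transcription factors tested, Runx1 (1.40), Spi1, which encodes PU.1 (1.29), and Irf8 (1.05) were higher, and in the early phase 1 gene was higher and 1 lower. Of 7 other blood cell growth factors and receptors tested, Csf2rb2 was higher and Sdc1 lower (-0.53), while Il3 and Il5 had at most 3 counts in every liver.

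The second comparison set the primary tumor against the liver of the same mice. The main fit took the tissues as unpaired, and the mouse as a block was an alternative. The 4 ligands with enough counts were higher in the tumor, Csf2 most of all, whereas of the receptors Csf2ra and Csf3r were higher and Csf1r, Csf2rb and Kit did not pass the test. In all, 6 of 9 members tested were higher and 0 lower (edgeR, 19751 genes), in a comparison where 83.3% of all genes tested passed, 43.8% higher and 39.5% lower. The scaling moved this comparison. With library totals, which RPKM uses, the median log2 fold change of all genes was 1.30 instead of 0.13, and 13353 genes were higher and 4207 lower instead of 8649 and 7810. RPKM values of tumor and liver are therefore set side by side as levels, and the fold changes below come from the TMM fit.

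Csf1 ran from 35.5 (M8) over a median of 52.4 to 66.0 RPKM (M5) in the tumors. It was higher in the tumor than in the liver of all 9 mice, and the log2 fold change was 2.54 ± 0.13 (SE; edgeR adjusted p = 4.2e-13). Il34 ran from 13.5 (M2) over 20.2 to 25.9 RPKM (M8), with a log2 fold change of 4.20 ± 0.32 (SE; adjusted p = 1.7e-10). Kitl ran from 9.75 (M12) over 11.4 to 14.8 RPKM (M10), with a log2 fold change of 3.14 ± 0.21 (SE; adjusted p = 2.7e-11). For each of these ligands the lowest tumor lay above the highest liver, a separation that 52.9% of all genes tested showed in this direction.

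Csf2 had 14 (M4) to 102 counts (M8) in the tumors, a level of 0.179 to 1.39 RPKM with a median of 0.604. Summed over libraries it gave 484 counts in the tumors and 1 in the pre-metastatic livers, a ratio of 479 relative to library totals, with an exact 95% interval of 85.5 to 18942. The TMM fit gave a log2 fold change of 6.99 ± 0.63 (SE; edgeR adjusted p = 2.5e-09), a value that depends on the prior count since 8 of the 9 livers had 0. Csf3 was scarce in the tumors too, with 1 (M4) to 29 counts (M8) and at most 0.202 RPKM. It gave 100 counts in the tumors and 17 in the livers, a ratio of 5.82 with an interval of 3.46 to 10.4, and it was higher in the tumor than in the liver of 8 of 9 mice (exact sign-flip test within mice on log2(RPKM + 1), two-sided p = 0.0117). Both ligands were lowest in the tumor of M4 and highest in that of M8. These ratios use library totals and so share the upward shift of all genes.

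Among the receptors, Csf2ra measured 2.38 to 4.65 RPKM in the tumors (median 3.16) and its log2 fold change was 0.98 ± 0.16 (SE; edgeR adjusted p = 1.3e-05). Csf3r measured 2.18 to 4.47 RPKM (median 3.20), with a log2 fold change of 0.57 ± 0.18 (SE; adjusted p = 0.00738), which in the 4 late-phase mice was 0.69 with an adjusted p of 0.0900. Csf1r measured 24.9 to 69.7 RPKM (median 40.9) and its log2 fold change was -0.08 ± 0.21 (SE; adjusted p = 0.743). Csf2rb, at 7.31 to 12.2 RPKM, gave 0.02 ± 0.13 (SE; adjusted p = 0.888), and Kit, at 0.882 to 2.502 RPKM, gave 0.06 ± 0.27 (SE; adjusted p = 0.845). These 3 receptors depended on the scaling: with library totals their log2 fold changes were 1.09, 1.2 and 1.23, with adjusted p of 0.000181, 1.1e-07 and 0.000404. Their difference between tumor and liver was thus below the shift that the scaling itself makes. Fitting the mouse as a block changed no call of a member.

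Markers of the cells around these transcripts and genes of the pathway were counted in this comparison too. Over all genes tested, 43.8% were higher and 39.5% lower, and the counts of signaling genes and inducers lie near these shares. Of 6 Kupffer cell markers, 5 were lower in the tumor, with Clec4f falling by 11.7 on the log2 scale, and their summed level was 20.2 to 69.8 RPKM there. All 7 markers of monocytes and macrophages were higher, with a sum of 935 to 2822 RPKM, most of it Lyz2. All 9 mast cell markers were higher too, with a sum of 12.4 to 311 RPKM. Granulocyte precursor genes were lower for 3 of 4, Prtn3 by 6.57 on the log2 scale, while neutrophil markers were higher for 2 and lower for 3 of 9 tested. Of the 24 signaling genes, 14 were higher and 9 lower, with the adaptor Dok1 at 3.82 and Stat3 at -1.70. Of 9 inducers tested 5 were higher and 4 lower, with Il6 at 3.12 and Tnf at 3.03. With library totals these counts were 20 and 2 for signaling and 6 and 2 for inducers. The part of these cells in the receptor levels was not tested.

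The remaining lists are given beside the same shares of all genes, 43.8% higher and 39.5% lower. Dendritic cell markers were higher for 2 and lower for 2 of 5, and those of T and NK cells higher for 4 and lower for 1 of 5. Those of stellate cells and fibroblasts were higher for 4 and lower for 2 of 6. Endothelial markers were higher for 1 and lower for 4 of 6, smooth muscle markers higher for 1 and lower for 2 of 5 and gut epithelial markers higher for 2 and lower for 3 of 5. The 5 hepatocyte markers and the 1 red cell gene tested were lower. Of 12 myeloid transcription factors 8 were higher, Klf4, Gata2 and Runx1 among them (4.59, 4.44 and 4.21), and 3 lower, or 10 and 1 with library totals. Of 4 feedback genes Socs1 was higher (3.07) and 3 were lower. Of 7 other growth factor genes 2 were higher and 3 lower.

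Set against the control livers, with which the pre-metastatic livers were also compared, all 9 members tested were higher in the tumors (edgeR, 19322 genes, of which 82.3% passed, 44.2% higher and 38.1% lower). With library totals, 12860 of these genes were higher and 4131 lower, instead of 8542 and 7356. The log2 fold changes were 3.41 for Csf1, 3.51 for Il34, 3.67 for Kitl, 1.04 for Csf1r, 2.01 for Csf2ra, 1.43 for Csf2rb, 2.57 for Csf3r and 1.54 for Kit, with adjusted p between 4.2e-13 and 0.000566. In the same order, the pre-metastatic livers had given 0.85, -0.70, 0.51, 1.10, 1.01, 1.40, 1.98 and 1.46 against the same controls. Csf2 gave 484 counts in the tumors and 1 in the control livers, and Csf3 100 and 1. All 9 tumors lay above all control livers for each of the 9 members tested, as did 56.4% of all genes tested.

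Whether the ligand level of a tumor went with the receptor level in the liver of the same mouse was examined in 9 relations over the 9 mice. Tumor Csf2 and liver Csf2ra gave Pearson's r = 0.38 and Spearman's rho = 0.57 (exact permutation p = 0.316 and 0.121, adjusted p = 0.757 and 0.689), with r = 0.38 without M4 and M8 and a rho of 0.68 for ranks centered within the clock phase (exact permutation p = 0.0774). Tumor Csf3 and liver Csf3r gave r = 0.49 and rho = 0.45 (exact permutation p = 0.181 and 0.230, adjusted p = 0.757 and 0.689), with r = 0.51 without M6 and M8 and a phase-centered rho of 0.45. Tumor Csf1 and liver Csf1r gave r = 0.23 and rho = 0.27 (exact permutation p = 0.569 and 0.493), with r = 0.08 without M5 and M8. The other 6 relations, of tumor Il34, Csf2, Kitl and the 3 colony-stimulating factors with liver Csf1r, Csf2rb, Kit and the liver neutrophil markers, had rho between -0.32 and 0.45. None of the 9 had an adjusted p under 0.05, and the lowest was 0.689 for rho.

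Within a tissue, 8 relations of a receptor with summed cell markers were examined in the same libraries. Liver Csf1r and the 6 Kupffer cell markers gave r = 0.97 and rho = 0.92 over the 9 pre-metastatic livers (exact permutation p = 3.3e-05 and 0.00131, adjusted p = 0.000265 and 0.0105). Without M7 and M10 r was 0.96 (adjusted p = 0.0190) and rho 0.82 (adjusted p = 0.273), and for phase-centered ranks rho was 0.92 (adjusted p = 0.0333). Liver Csf3r and the neutrophil markers gave r = 0.49 and rho = 0.23 (exact permutation p = 0.180 and 0.552, adjusted p = 0.240 and 0.736), and r was -0.29 without M2 and M7. Abundant genes weigh most in this sum. In these livers S100a8 averaged 18.3 RPKM of a mean sum of 50.1 RPKM, against 0.324 RPKM for Mmp9. Liver Csf2rb and the neutrophil markers gave r = 0.40 and rho = 0.15, and liver Kit and the mast cell markers r = 0.54 and rho = 0.55, both with an adjusted p above 0.05.

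In the tumors, Csf1r and the markers of monocytes and macrophages gave r = 0.82 and rho = 0.70 (exact permutation p = 0.00762 and 0.0433, adjusted p = 0.0305 and 0.173). Lyz2 averaged 1399.8 RPKM of a mean marker sum of 1614.7 RPKM, so that the sum was mostly this gene. Without M1 and M2, the lowest and highest tumors for Csf1r, r was 0.43 (adjusted p = 0.655). Leaving out both ends narrows the range, so that this fall cannot tell whether the relation rested on those mice. Tumor Csf3r with neutrophil markers (r = 0.49, rho = 0.55) and tumor Kit with mast cell markers (r = 0.52, rho = 0.53) had adjusted p of 0.240 for r and 0.236 for rho. Tumor Csf2rb with neutrophil markers gave r = 0.18 and rho = -0.02.

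**Figure D4:**
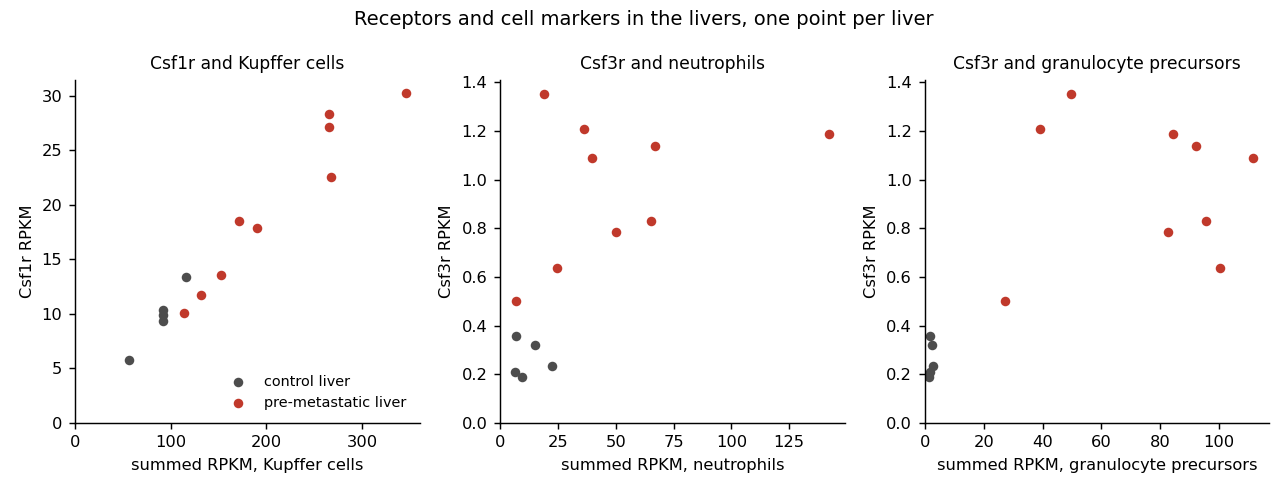
RPKM of Csf1r against the summed RPKM of Kupffer cell markers, and of Csf3r against those of neutrophils and of granulocyte precursors, 1 point per liver (grey, 5 control livers; red, 9 pre-metastatic livers). Csf1r rises with the Kupffer cell markers from liver to liver, while Csf3r (0.501 to 1.35 RPKM) lies above all control livers in every pre-metastatic liver.

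Ratios of 2 genes within a library do not depend on how libraries are scaled. After the values had been seen, 9 ratios or shares were formed, 3 between members, 1 with Csf2rb2 and 5 of a receptor per Ptprc. They were compared in 27 exact two-sided rank-sum tests. These tests took tumors and livers of the same mice as unpaired, and no test within mice was run for the ratios. With 9 mice, the smallest p that an exact sign-flip test within mice allows is 0.00391. Il34 made up 24.9 ± 5.62% of the summed RPKM of the CSF1R ligands Csf1 and Il34 in control livers (SD, n = 5), 10.05 ± 4.32% in pre-metastatic livers and 27.2 ± 6.68% in tumors (SD, n = 9 each). Every pre-metastatic liver (2.31% to 16.6%) lay below every control liver (21.2% to 34.6%). The exact p was 0.000999, the smallest that 9 against 5 libraries allow, and the adjusted p 0.00225. Csf1 alone already separated these livers upward, so that this p is no independent support. How often ratios of other genes separate in this way was not counted. The difference of -14.9 percentage points ranged from -16.0 to -12.4 when 1 library was left out or the early phase alone was used. Between tumors and control livers the exact p was 0.364.

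The ligand Kitl stood at 1.73 ± 0.544 RPKM per RPKM of its receptor Kit in control livers (SD, n = 5), at 0.874 ± 0.313 in pre-metastatic livers and at 7.84 ± 3.93 in tumors (SD, n = 9 each). The fall between livers had an exact p of 0.00699 (adjusted p = 0.0118) and stayed below zero in each alternative (-1.07 to -0.66). Csf1 per Csf1r was 0.246 ± 0.0354 in control livers and 0.222 ± 0.0893 in pre-metastatic livers (exact p = 0.364). It was 1.31 ± 0.326 in tumors, where every tumor lay above every liver (unpaired exact p = 4.1e-05 against pre-metastatic livers, adjusted p = 0.000222). Csf2rb2 made up 19.4 ± 2.20% of the summed RPKM of the 2 beta chain genes in control livers, 27.1 ± 3.58% in pre-metastatic livers (exact p = 0.000999, adjusted p = 0.00225) and 29.5 ± 1.79% in tumors.

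**Figure D5:**
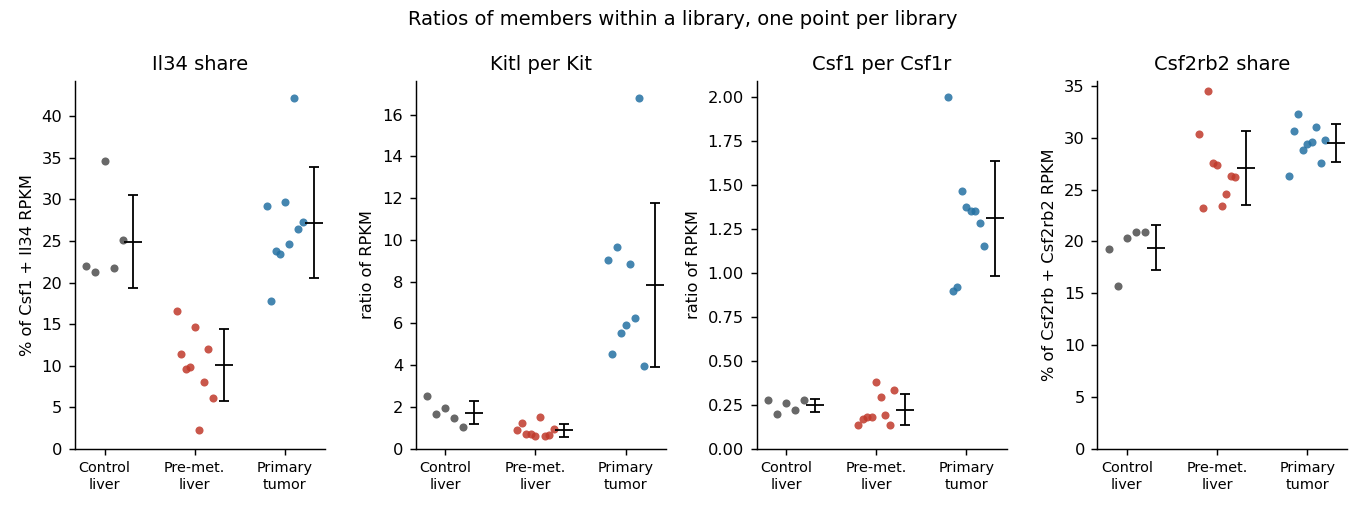
4 ratios of members within a library in control livers (grey), pre-metastatic livers (red) and primary tumors (blue), 1 point per library, with the mean and SD beside each group and axes that start at 0. The share of Il34 is lowest in the pre-metastatic livers, Kitl per Kit and Csf1 per Csf1r are high in the tumors alone, and the share of Csf2rb2 is lowest in the control livers.

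The genes whose levels were most like those of a member across the 9 libraries of a tissue were listed as a description, by Pearson's r of log2(RPKM + 1) over 14257 genes in the liver and 15604 in the tumor. For Csf1r in pre-metastatic livers these were Adgre1, the macrophage antigen F4/80 (r = 0.99), Hcls1 (0.99) and Cd300a (0.98). For Csf2rb they were Cd22, C5ar1 and Vps28 (0.97 to 0.94), for Csf3r Gm6204, Selplg and Mrpl54 (0.94 to 0.93), and for Kit Sema3f, Hpse and Rab31 (0.98 to 0.97). Kitl was most like Tbx20, Prkg1 and Myzap (0.97 to 0.96). In the tumors Csf1r was most like Ncf1, a subunit of the phagocyte NADPH oxidase (0.99), Csf1 like Il6ra and Pirb (0.97 and 0.96) and Csf2 like Ano6 (0.97). The points share the library and its depth, and with so many genes compared over 9 libraries values of this height are to be read as an order and nothing more.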

How the data were processed

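Whole-tissue RNA of 5 control livers, 9 pre-metastatic livers and 9 primary tumors was sequenced by the authors, who deposited for each library raw counts per gene and RPKM values. The labels name build mm10 and the tools HISAT2 and HTSeq 0.6.0 without their roles. The annotation and the use of strand in counting are not given in the sources used here. Genes on the opposite strand of a member reached at most 65 counts. The deposited RPKM equalled the count per kilobase scaled to the library total within a relative deviation of 1.75e-06.

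Counts were tested with edgeR 4.0.16 (quasi-likelihood, TMM) in R 4.3.3, on genes that reached 10 counts in 5 or more libraries, for the 2 groups compared only, with Benjamini-Hochberg adjustment over all genes tested. Standard errors were the log2 fold change divided by the square root of F. Scarce ligands were tested by an exact two-sided Wilcoxon rank-sum test, the test of the study, whose smallest p is 0.000999 for 9 against 5 libraries, and correlations across mice on log2(RPKM + 1) by exact permutation over all pairings. Alternatives were DESeq2 1.42.0, library totals, upper-quartile scaling, no count filter, exact tests on RPKM, omission of each library or mouse, the clock phase and the mouse as a block. Samples were grouped by their labels. Replicates are separate mice. Tumor and liver of 1 mouse share an animal, and how far each lay from its group mean went together weakly within a mouse (12750 genes, mean r = 0.08, range -0.04 to 0.27, against -0.01 between mice). The clock phase was cut at an index of 0.5 from 6 clock genes in the livers. The scripts were tested on simulated data. Of 100 genes changed by 1 on the log2 scale, 65 were recovered between livers and 53 between tumor and pre-metastatic liver. A difference of that size can therefore be missed.

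The members, lists and tests were chosen with earlier results of these data known. All members are named. From each list up to 4 called genes with the largest change were eligible, and for each member the 3 genes most like it. Reads shared by close copies, such as Csf2rb and Csf2rb2, could affect the levels of both, and how they were counted is not stated. An exact interval covers counting error only.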

Additional observations from a re-analysis of the deposited data

Results flagged for a closer look

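In 30 groups of values (10 members in 3 tissues), a single library stood apart from the rest of its group 3 times. The rate of about 1 group in 20 by chance is for values on a continuous scale and does not apply to these 3. Csf2 was at 0.0118 RPKM in control liver C1 and at 0.016 RPKM in the pre-metastatic liver of M2, and Csf3 was at 0.00715 RPKM in control liver C6. Each of them was 1 count where all the other livers of the group had 0. A lone count where all others are 0 is always flagged. No library stood apart for a member that was well expressed.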

How the results depend on the processing

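Between livers, each of the 8 members tested kept its direction and its side of the threshold in all 21 alternatives, with an adjusted p of at most 0.0438 for the 6 called. Against control livers the 9 members stayed called in all 19 alternatives. Between tumor and pre-metastatic liver the 4 ligands and Csf2ra kept their calls, and the replicate block changed no member's call (Csf3r 0.59, adjusted p = 0.0164). Csf1r turned to 1.09 with library totals, 0.10 with upper-quartile scaling and 1.08 by the exact tests on RPKM (log2), and ranged from -0.21 to 0.062 when 1 mouse was left out. Csf2rb turned to -0.030 with DESeq2 and -0.021 in the early phase, and ranged from -0.10 to 0.13 without 1 mouse. Kit turned to -0.078 in the early phase and ranged from -0.11 to 0.21. Of the other genes, Clec9a turned to 0.45, Lyve1 to 0.14 and Socs3 to 0.69 with library totals, and to 0.16, 0.019 and 0.68 by the exact tests on RPKM. The Xcr1, Il3ra and Myh11 calls between tumor and liver were lost with the replicate block. Genes higher in the pre-metastatic than in the control liver numbered 1955 by the exact rank-sum test instead of 3010. Between tumor and liver, 13353, 13308 and 13300 genes were higher and 4207, 4125 and 4099 lower with library totals, the rank-sum test and the sign-flip test, and against control livers 12860 were higher with library totals and 4131 and 4128 lower with library totals and the rank-sum test. Without the 2 mice farthest from the median, rho turned to -0.036 for tumor Csf3 and liver neutrophil markers, -0.39 for liver Csf3r and -0.036 for liver Csf2rb with the same markers, and fell to 0.82 for liver Csf1r and Kupffer cell markers. For the ratios within a library, the alternatives were chosen after seeing the data. Between livers they differed by -0.074 to 0.086 for Csf2rb per Ptprc and -0.019 to 0.0292 for Kit per Ptprc when 1 liver was left out. Csf1 per Csf1r turned from -0.024 to 0.0067 in the early phase. Csf2 could not be tested in the late phase alone. At 1 to 29 counts, depth limits what Csf3 can show.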

Other observations

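The ratio of a receptor to another gene of the same library was also taken after the values had been seen. Its rank-sum tests between tumors and pre-metastatic livers took the tissues of a mouse as unpaired, and none was run within mice. Relative to Ptprc, the marker of all leukocytes, no receptor passed the threshold between livers after adjustment. In RPKM per RPKM of Ptprc (SD, n = 5 and 9), Csf3r stood at 0.247 ± 0.0656 in control and 0.368 ± 0.131 in pre-metastatic livers (exact p = 0.0420, adjusted p = 0.0596), Csf2ra at 0.365 ± 0.0783 and 0.273 ± 0.0596 (exact p = 0.0420, adjusted p = 0.0596) and Csf1r at 9.03 ± 1.41 and 7.16 ± 1.47 (exact p = 0.0599, adjusted p = 0.0767). Csf2rb stood at 1.46 ± 0.320 and 1.46 ± 0.319 (exact p = 0.898), and Kit at 0.255 ± 0.0685 and 0.267 ± 0.114 (exact p = 1). In the tumors Csf1r (2.75), Csf2rb (0.601) and Kit (0.118) per Ptprc were lower than in pre-metastatic livers (exact p = 4.1e-05, 4.1e-05 and 0.00185, adjusted p = 0.000222, 0.000222 and 0.00384) and than in control livers (adjusted p of at most 0.00771). Csf3r per Ptprc in tumors (0.220) was lower than in pre-metastatic livers (adjusted p = 0.0123) and did not pass against control livers (adjusted p = 0.393), whereas Csf2ra (0.217) was lower than in control livers (adjusted p = 0.0118) and did not pass against pre-metastatic livers (adjusted p = 0.0679).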
